A study of Bos taurus with 10 samples.

Results

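The genes of 10 antioxidant enzymes were followed across 10 animals: the superoxide dismutases SOD1 and SOD2, catalase (CAT), the glutathione peroxidases GPX1, GPX3 and GPX4, and the peroxiredoxins PRDX1, PRDX2, PRDX3 and PRDX6. They are known antioxidant enzymes, chosen with earlier results of these data known, and their probe sets were found by symbol in the platform annotation. All 10 were on the array, with 15 probe sets among 24016 outside the controls, and each stands among 9155 named genes. RNA came from the longissimus dorsi, the long back muscle, of Hanwoo, a Korean native breed of beef cattle, and was read on 10 Affymetrix GeneChip Bovine Genome Arrays. The labels place all 10 samples in 1 group with no treatment or genotype, and give an age of about 2 years for animal 1 alone. Its aim was to correlate expression with meat traits of these cattle, but no trait values were used here and no group was set against another. That each sample is a different animal rests on the sample names and on the design text, and the p-values below measure the spread between these samples.

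Superoxide dismutases turn superoxide, a by-product of respiration, into hydrogen peroxide, SOD1 mainly in the cytosol and SOD2 in the mitochondrial matrix. Hydrogen peroxide is then removed by catalase in peroxisomes, by glutathione peroxidases, which carry selenocysteine and draw on glutathione, and by peroxiredoxins, which react through a cysteine. In meat animals these enzymes are known for limiting the oxidation of muscle lipids and pigment.

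Levels are log2(signal + 16) after quantile normalization, which gives every array the same distribution of values. Differences on this scale understate the changes of dim genes. Levels of different genes are read by different probes, so they are not ranked against each other. A gene was tested where its mean lay above 6.98, the median of all probe sets, which all 10 enzyme genes and 6271 of the named genes did. The brightest probe set stands for a gene. Skeletal muscle markers were at the top of the scale in all 10 animals, where the mean over 7 measured slow fibre genes ran from 14.51 to 15.06 and that over 7 fast fibre genes from 15.46 to 15.67.

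Animal 5 stood apart on its array controls, so spreads and fits are also given without it. For the spiked-in poly(A) control RNAs, probe sets at the 3′ end exceeded those at the 5′ end by 2.93 (log2) in animal 5 and by 1.40 to 1.70 in the other 9 animals. For the animals' own transcripts this difference was 0.70 against -0.29 to 0.17 for GAPDH and -0.48 against -3.18 to -2.05 for EF1A. For actin, at -0.17, animal 5 lay inside the range of the others, -0.36 to -0.05. Of the 6271 tested genes, 27.5% were at their lowest of all 10 animals in animal 5 and 21% at their highest, 48.6% in all. The part of these control differences in the values of animal 5 was not tested.

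All 10 enzyme genes were at an extreme in animal 5, and they split into a low and a high set. SOD1, GPX1, GPX3, GPX4, PRDX1 and PRDX2 were at their lowest there, 6 of 10 genes where 27.5% of all tested genes were. SOD2, CAT, PRDX3 and PRDX6 were at their highest, 4 of 10 where 21% of all tested genes were. With the deposited scaling, or with arrays centred on their median, the counts were 6 lowest and 3 highest, since CAT then fell inside the range of the others. The second brightest probe set of PRDX6 was lowest, not highest, in animal 5.

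**Figure D1:**
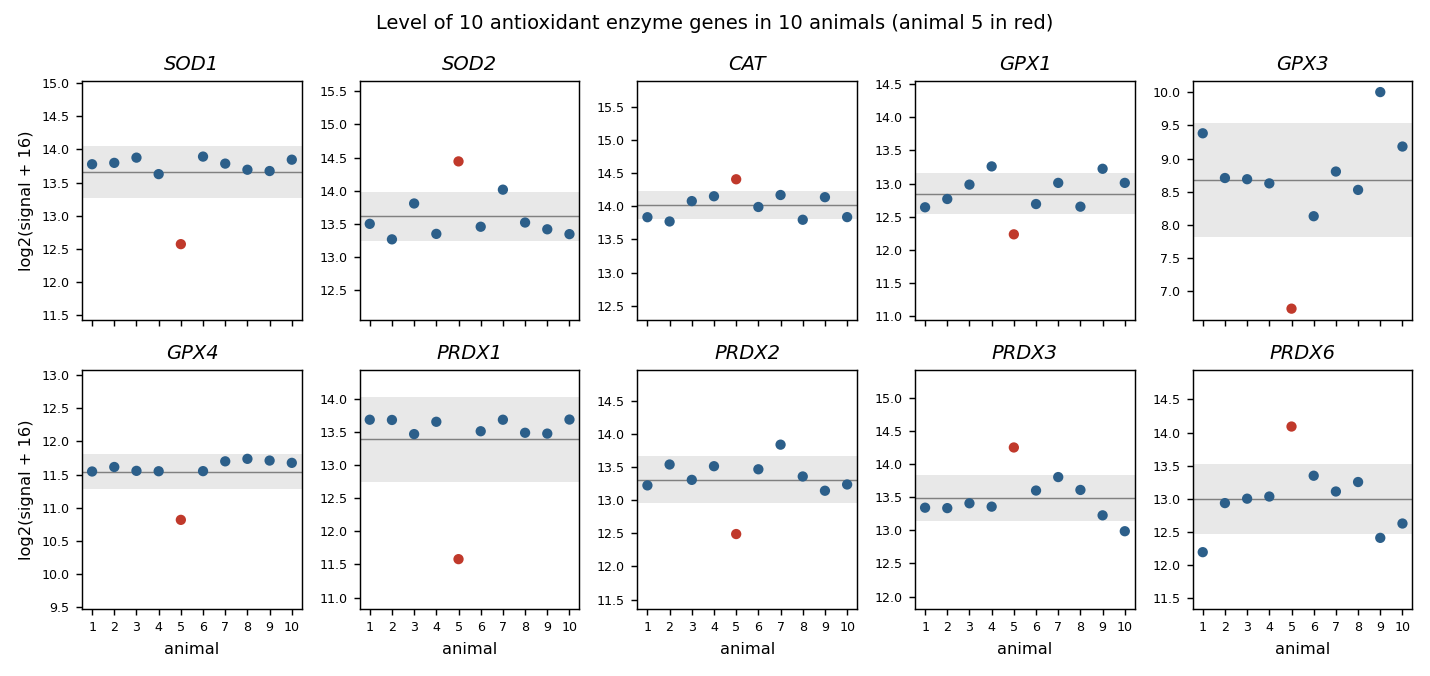
Level of each enzyme gene, as log2(signal + 16) after quantile normalization, in animals 1 to 10. Each point is 1 animal, the line is the mean and the grey band is ± 1 SD (n = 10), and every panel spans the same 3.6 log2 units. Animal 5, in red, is the lowest point for SOD1, GPX1, GPX3, GPX4, PRDX1 and PRDX2 and the highest for SOD2, CAT, PRDX3 and PRDX6.

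Among the superoxide dismutases, SOD1, the cytosolic copper and zinc enzyme, had a lowest level of 12.57 in animal 5, a median of 13.78 and a highest level of 13.89 in animal 6. The other 9 animals lay within 13.63 to 13.89, a 1.20-fold range of signal + 16, as all fold ranges here are given, so nearly all of the spread came from 1 animal. Its SD was 0.39 over 10 animals and 0.09 without animal 5. Its deposited intensity was 6096 in animal 5 and 12478 to 16953 in the others.

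SOD2, the mitochondrial manganese enzyme, ran the other way, from 13.27 in animal 2 through a median of 13.48 to 14.44 in animal 5. Animals 7 and 3 followed at 14.02 and 13.81. The mean was 13.61 ± 0.37 (SD, n = 10), and the SD without animal 5 was 0.24. Without that animal its spread was thus wider than that of SOD1.

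CAT, which splits hydrogen peroxide into water and oxygen, had the smallest SD of the 10 over all animals. It ran from 13.77 in animal 2 through a median of 14.03 to 14.41 in animal 5, a 1.55-fold range. Its SD was 0.21, and 9.60% of all tested genes had a smaller one. Without animal 5 it was 0.17, above the 0.08 of GPX4, the 0.09 of SOD1 and the 0.10 of PRDX1. Animal 5 was 0.24 above animal 7, the next highest.

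GPX3, the glutathione peroxidase secreted into plasma, varied most. Its level was 6.74 in animal 5, 8.70 at the median and 10.002 in animal 9, a 9.62-fold range. The value in animal 5 lay below 6.98, the mean level above which a gene was tested. The SD was 0.86, larger than that of 97.1% of tested genes, and 0.55 without animal 5. Animals 1 and 10 followed animal 9 at 9.38 and 9.18, and animal 6 was the lowest of the other 9 at 8.13. Deposited intensities ran from 84.3 to 1011. Without animal 5 the range was still 3.66-fold, against at most 2.22-fold for any of the other 9 enzyme genes in those animals.

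GPX4, which reduces peroxides of membrane lipids, was the steadiest gene outside animal 5. It stood at 10.82 in animal 5, at 11.58 at the median and at 11.74 in animal 8. The other 9 animals spanned 1.14-fold, with an SD of 0.08 against 0.27 over all 10. GPX1, the cytosolic selenoenzyme, ran from 12.23 in animal 5 through a median of 12.88 to 13.26 in animal 4. Its spread did not rest on animal 5 to the same degree, with an SD of 0.31 over 10 animals and 0.24 without animal 5. Animals 4 and 9 were its highest, at 13.26 and 13.22. A dimmer GPX1 probe set, with a mean of 7.87, did not share this order (r = 0.13 over 10 animals), and was lowest in animal 8.

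PRDX1, a cytosolic peroxiredoxin that thioredoxin reduces, showed the widest gap between 1 animal and the rest. It stood at 11.58 in animal 5, at 13.58 at the median and at 13.68 in animal 10. The next lowest animal was 1.89 log2 units above animal 5, while the other 9 spanned 1.16-fold. The SD of 0.64 fell to 0.10 without animal 5. The deposited intensity was 3034 in animal 5 and 11129 to 14449 in the others.

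PRDX2, its close cytosolic relative that is abundant in red cells, ran from 12.49 in animal 5 through a median of 13.33 to 13.84 in animal 7. The SD was 0.35, or 0.21 without animal 5. Red cell markers were low, as the mean over 8 measured genes lay between 6.11 and 6.52, with the hemoglobin genes HBA at 6.99 ± 0.36 and HBB at 5.70 ± 0.54 (SD, n = 10). CA2 was the brightest of that list at 11.36. No array value here separates red cell RNA from muscle RNA for SOD1, CAT or PRDX2, and its part was not tested.

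PRDX3, the mitochondrial peroxiredoxin, stood at 12.99 in animal 10, at 13.38 at the median and at 14.25 in animal 5. Animal 7 was again second, at 13.80. The SD was 0.35, or 0.24 without animal 5. A second PRDX3 probe set with a mean of 7.42 was also highest in animal 5, at 8.37, but its r with the brighter one was 0.50 over all animals and -0.10 without animal 5.

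PRDX6, the peroxiredoxin with a single active cysteine that also acts on phospholipids, ran from 12.20 in animal 1 through a median of 13.02 to 14.09 in animal 5. Its SD was 0.53, or 0.39 without animal 5. It has 4 probe sets, with means of 13.002, 11.05, 7.54 and 4.74, of which the last was below the level for testing. The 2 brightest went opposite ways in animal 5, where the first was highest at 14.09 and the second lowest at 9.99, against 10.85 to 11.58 in the others. Over 10 animals their r was -0.32, and over the 9 without animal 5 it was 0.78. The third had r = -0.63 with the first. The PRDX6 level in animal 5 therefore has a direction only for a given probe set.

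**Figure D2:**
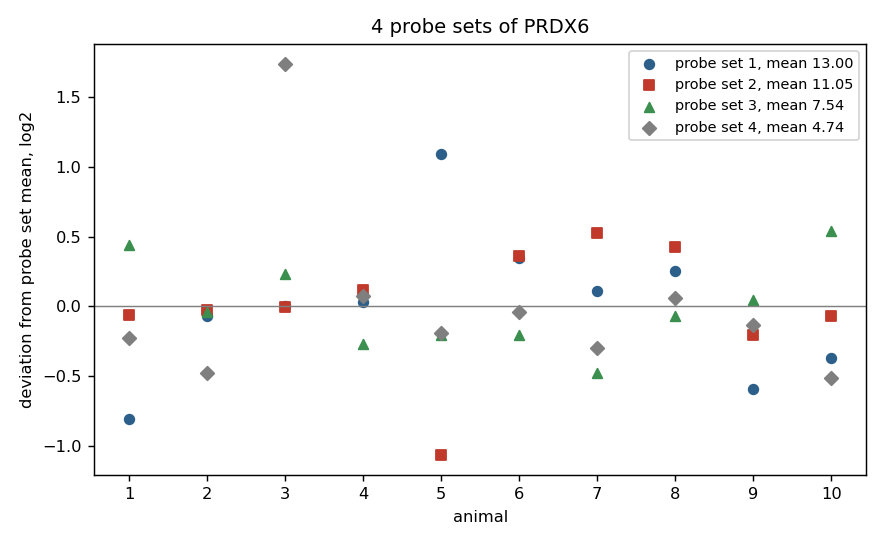
Deviation of the 4 PRDX6 probe sets from their own means, in log2 units, in animals 1 to 10, with the mean level of each in the key. In animal 5 the brightest probe set is highest and the second brightest lowest, while in the other 9 animals these 2 vary together (r = 0.78).

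Measured against the mean of the other 9 animals, the low set in animal 5 ran from GPX3 at -2.16 and PRDX1 at -2.01 through SOD1 at -1.20, PRDX2 at -0.91 and GPX4 at -0.81 to GPX1 at -0.68. As a fold of signal + 16, the other animals were 4.46-fold above animal 5 for GPX3 and 4.03-fold for PRDX1. The high set ran from PRDX6 at 1.21 through SOD2 at 0.92 and PRDX3 at 0.84 to CAT at 0.43. Each of the 10 differences exceeded the SD of the other 9 animals for that gene. That largely restates that all 10 levels lay outside the range of those animals, as did 48.6% of all tested genes. One animal gives no test of these differences.

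**Figure D3:**
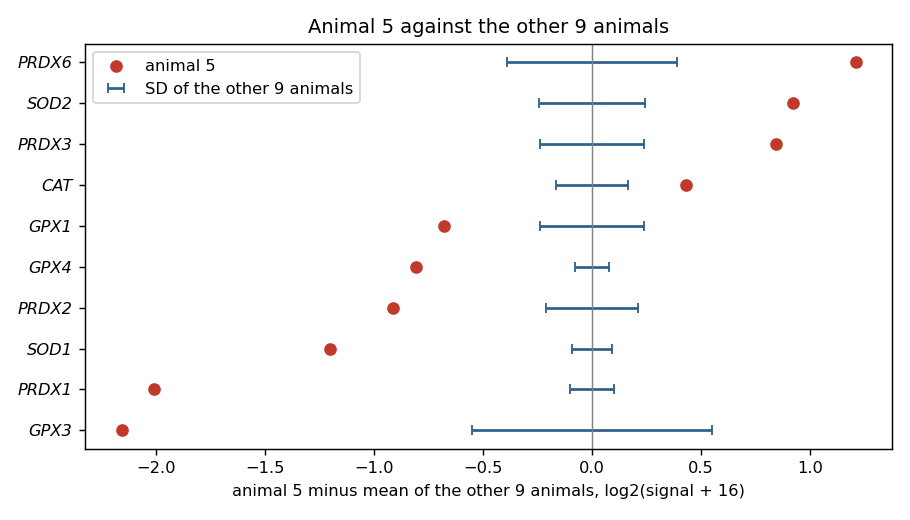
Level in animal 5 minus the mean of the other 9 animals, in log2 units, for each enzyme gene (red points), with ± 1 SD of the other 9 animals (blue bars). All 10 points lie outside their bars, 6 below 0 and 4 above, which largely restates that each is an extreme of the 10 animals.

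The median spread of the set was close to that of all tested genes when all animals were counted. The median SD over the 10 enzyme genes was 0.36, and that over all 6271 tested genes was also 0.36, with 5 of 10 above it. Without animal 5 the medians were 0.23 for the enzymes and 0.31 for all tested genes. These medians were not matched for level. Against the median SD of tested genes within 0.5 log2 units of their mean, the enzyme genes differed over 10 animals. PRDX1 had 0.64 against 0.33, GPX3 0.86 against 0.37, PRDX6 0.53 against 0.34, SOD1 0.39 against 0.31 and SOD2 0.37 against 0.31. PRDX2 and PRDX3 were slightly above it, and CAT (0.21 against 0.30), GPX4 (0.27 against 0.33) and GPX1 (0.31 against 0.33) below. Animal 7 was the only animal in which 0 of the 10 genes lay below their own mean, where 46.1% of all tested genes did. With means taken without animal 5 it was 1 of 10, against 48.6% of all tested genes. It held 6 of its levels among the 3 highest, with PRDX2 at its highest and SOD2, CAT and PRDX3 at their second highest. Of all tested genes, 7.88% were at their highest in animal 7, and the share among the 3 highest was not taken. Animal 7 was singled out by these values.

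Whether the enzyme genes varied together was asked by fitting, in limma, every other tested gene on the level of each enzyme gene in SD units. Over 10 animals all 15 pairs within the low set and all 6 within the high set had r above 0, and all 24 pairs across the sets had r below 0. These signs largely restate animal 5, which defines the sets and enters each r. Without animal 5, r was above 0 in 9 of the 15 low pairs, 6 of the 6 high pairs and 13 of the 24 across. Of 90 fits of 1 enzyme gene on another, 23 passed an adjusted p of 0.05, 16 with a positive and 7 with a negative slope, in 16 of 45 pairs. Without animal 5, 0 of 90 passed in limma and 5 (5.56%) had an unadjusted p below 0.05, where 3.49% to 11.5% of all other tested genes did. The smallest adjusted p was 0.157. With the control 3′ minus 5′ difference as a covariate 0 passed as well. That difference was 2.93 in animal 5 and 1.40 to 1.70 in the others, so this run is close to leaving animal 5 out.

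The background of these fits, the share of all other tested genes that passed, differed widely between the enzyme genes. The PRDX1 level was past the test with 15.6% of all other tested genes, SOD1 with 13%, GPX4 with 12.9% and GPX3 with 10.3%. The share was 6.89% for PRDX3, 6.86% for PRDX6, 2.31% for SOD2, 0.0159% for GPX1 and 0% for CAT and PRDX2. Without animal 5 it was 0.0159% for PRDX3 and 0% for the other 9. Within the low set the smallest p were those of PRDX1 on SOD1, at 0.62 log2 per SD (SE 0.08, limma adjusted p = 0.000965), and of PRDX1 on GPX4, at 0.61 (SE 0.08, limma adjusted p = 0.00437). Without animal 5 the PRDX1 slopes were below 0, at -0.0016 on SOD1 and -0.0131 on GPX4.

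**Figure D4:**
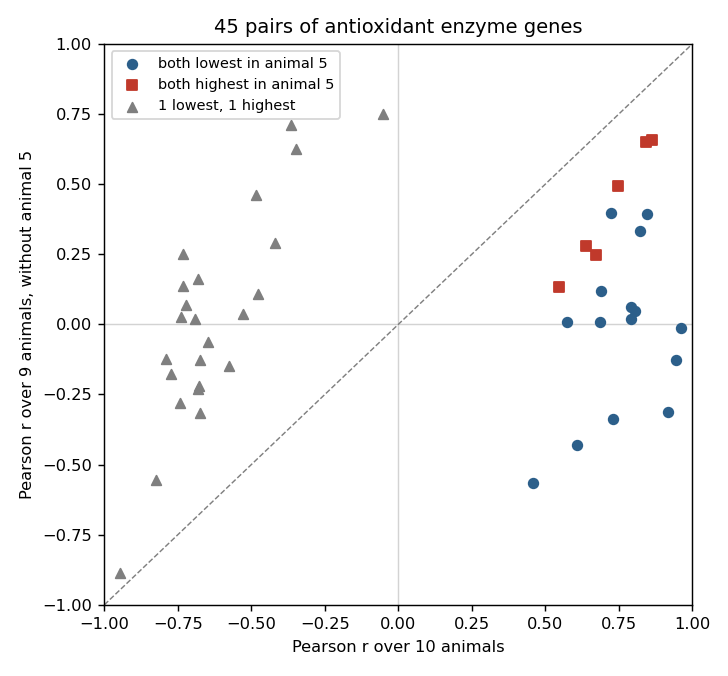
Pearson r of the 45 pairs of enzyme genes over 10 animals (x axis) and over the 9 animals without animal 5 (y axis), by whether both genes are lowest in animal 5, both highest, or 1 of each. The 15 pairs of the low set have r from 0.46 to 0.96 with animal 5 and from -0.57 to 0.40 without it. The pair at the lower left is GPX3 and PRDX6.

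The inverse relation of GPX3 and PRDX6 was the pair least altered by leaving animal 5 out. It was singled out after its values were seen. GPX3 fell by 0.81 log2 per SD of PRDX6 (SE 0.10, limma adjusted p = 0.00471), with r = -0.95 and rho = -0.92 over 10 animals. Without animal 5 r was -0.89 and rho -0.88, the slope was -0.48 (SE 0.10) and the limma adjusted p was 0.157. Without animals 5 and 1, the farthest from the PRDX6 median, r was -0.94. Animals 9, 1 and 10, with the highest GPX3 levels, had the 3 lowest PRDX6 levels at 12.41, 12.20 and 12.63. Animal 6, the lowest for GPX3 among the 9, had their highest PRDX6 level at 13.35. With the second PRDX6 probe set r with GPX3 was 0.44 over 10 animals and -0.69 without animal 5. With the third it was 0.45 and 0.46, and with the dimmest -0.05 and -0.22. The third probe set thus did not share the inverse relation, with or without animal 5.

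**Figure D5:**
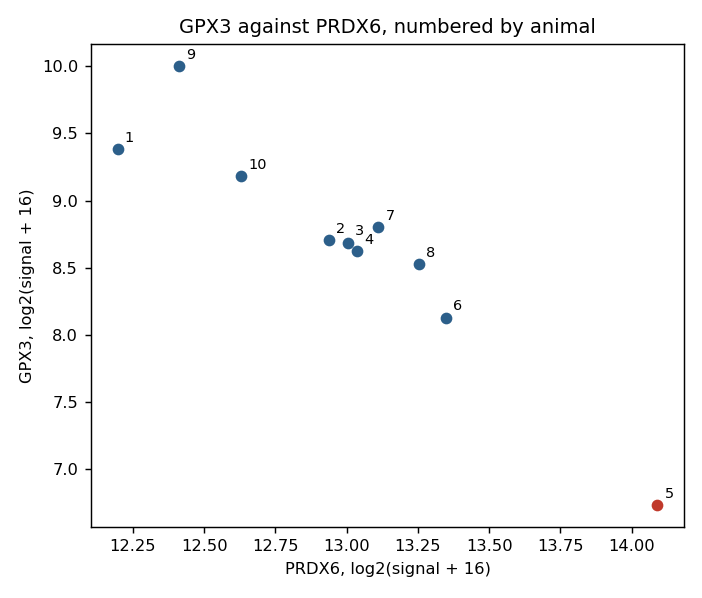
GPX3 level against PRDX6 level, both as log2(signal + 16) of the brightest probe set, with each point numbered by animal. Animal 5, in red, has the highest PRDX6 and the lowest GPX3, and the other 9 animals slope the same way (r = -0.89).

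The mitochondrial pair, SOD2 and PRDX3, kept its sign too, as did all 6 pairs of the high set. SOD2 rose by 0.32 per SD of PRDX3 (SE 0.08, limma adjusted p = 0.0397). Without animal 5 the slope was 0.16 (SE 0.08, limma adjusted p = 0.558). PRDX3 and PRDX6 likewise had r = 0.84 with animal 5 and 0.65 without it. This held for the brightest PRDX6 probe set. Over 10 animals the slope of PRDX3 on PRDX6 was 0.29 with that probe set and -0.12 with the second. PRDX2 changed sides. Its r with PRDX3 was -0.37 over 10 animals and 0.71 over the 9 without animal 5, and that of GPX1 with CAT was -0.05 and 0.75.

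The genes whose levels were most like those of each enzyme gene across the 10 animals were named by r alone. SOD1 was closest to the ribosomal protein genes RPL39 (r = 0.99) and RPS24 (0.98), and PRDX1 to SERF2 (0.99) and MEA1 (0.99). GPX4 was closest to SSNA1 (0.99) and MRPL16 (0.97), GPX3 to ABCF2 (0.96) and BCL2L12 (0.96), GPX1 to ANKRD12 (0.93) and SEC11A (0.92), and PRDX2 to DDX47 (0.97) and NT5C3B (0.92). In the high set, SOD2 was closest to C3H1orf52 (0.94) and LYPLA1 (0.94), CAT to OSBPL11 (0.93) and CHCHD3 (0.92), PRDX3 to the growth factor gene VEGFB (0.96) and DLAT (0.96), a subunit of pyruvate dehydrogenase, and PRDX6 to IL13RA1 (0.96) and ZNF398 (0.95). Without animal 5 these r ran from 0.46 for PRDX1 with MEA1 to 0.97 for GPX4 with SSNA1.

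Covariation with the rest of the tissue was tested against 5 gene scores. A score is the mean, over tested genes of a list, of each gene's deviation from its own mean, and the enzyme genes were in none of them. No enzyme gene passed an adjusted p of 0.05 in limma against any score, and without animal 5 the count was also 0 for each, with 0 to 2 of 10 genes per score at an unadjusted p below 0.05, where 3.48% to 12.2% of all other genes were. The share of other genes past the test without animal 5 was 0.0319% for the adipocyte score, 0.176% for the connective tissue score and 0% for the other 3. For the adipocyte score, over 11 fat cell genes, 0 of 10 had an unadjusted p below 0.05, and 0.016% of other genes rose and 0% fell at the adjusted threshold. For the connective tissue score, over 13 genes, it was also 0 of 10 unadjusted, with 0.0799% of genes that rose and 0% that fell. The largest adipocyte slope was that of GPX3 at 0.34 log2 per SD (SE 0.23, limma adjusted p = 0.952).

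Against the leukocyte score, over 9 genes, 3 of 10 enzyme genes had an unadjusted p below 0.05, namely GPX3 at 0.46, PRDX1 at 0.38 and SOD1 at 0.25 log2 per SD (limma adjusted p = 0.313, 0.285 and 0.288). Of all other genes, 9.65% had such a p with a positive and 6.15% with a negative slope, and 0.271% rose and 0.016% fell at the adjusted threshold. The mean over 13 measured leukocyte genes ran from 6.33 in animal 5 to 8.09 in animal 6. Of the 9 tested ones, 7 were lowest in animal 5, where 27.5% of all tested genes were. The part of the array control differences of animal 5 in these levels was not tested. In whole muscle, fewer cells of a type and less RNA per cell cannot be told apart. Without animal 5 the GPX3, PRDX1 and SOD1 slopes were 0.02, -0.06 and -0.0041.

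The oxidative phosphorylation score, over 37 genes of the respiratory chain and ATP synthase, asked which genes varied with those of mitochondrial energy supply. Here 4 enzyme genes had an unadjusted p below 0.05. PRDX1 had a slope of 0.51 (SE 0.13, limma adjusted p = 0.0979), SOD1 0.33 (SE 0.09, limma adjusted p = 0.0991), PRDX2 0.31 (SE 0.08, limma adjusted p = 0.0988) and GPX4 0.20 (SE 0.08, limma adjusted p = 0.211). None of these 4 is the mitochondrial SOD2 or PRDX3, whose slopes were -0.13 and -0.10. At the adjusted threshold 0% of other genes rose and 0.016% fell, while 11.8% rose at an unadjusted p below 0.05. The score itself was lowest in animal 5 at -0.31, against -0.08 to 0.19 in the others. Without animal 5 the slopes were -0.00766 for PRDX1, 0.04 for SOD1, 0.14 for PRDX2 and -0.0103 for GPX4. The enzyme genes then at an unadjusted p below 0.05 were PRDX3 at 0.21 (SE 0.07, limma adjusted p = 0.491) and SOD2 at 0.19 (SE 0.07, limma adjusted p = 0.533).

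NRF2 is the transcription factor that induces many antioxidant genes, and 14 of its known targets made up the last score. GPX3 had a slope of 0.61 (SE 0.18, limma adjusted p = 0.3), PRDX1 0.43, SOD1 0.26 and PRDX6 -0.36 (limma adjusted p = 0.305, 0.326 and 0.311). These 4 had an unadjusted p below 0.05, as 7.42% of other genes did with a positive and 6.44% with a negative slope; 0% passed the adjusted threshold either way. Without animal 5 none of the 10 had an unadjusted p below 0.05. The score was lowest in animal 5 at -0.32 and highest in animals 9 and 7, at 0.16 each. NFE2L2, which encodes NRF2 itself, was highest in animal 5 at 12.94, against 11.48 to 12.13 in the others.

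The wider redox system was described with 11 lists of thioredoxin, glutathione, selenoprotein, NADPH and oxidant-producing genes. Of 104 genes listed, 68 were measured and 59 tested. None of the 59 passed in limma against any of the 5 scores, and 4 (6.78%) with the adipocyte score to 15 (25.4%) with the leukocyte score had an unadjusted p below 0.05, where 5.54% and 15.8% of all other genes did. Without animal 5 again 0 passed, with 3 to 11 at an unadjusted p below 0.05 per score, where 3.48% to 12.2% of all other genes were. In animal 5, 25 of the 59 (42.4%) were at their lowest and 8 (13.6%) at their highest, where 27.5% and 21% of all tested genes were. Their median SD was 0.37, and 0.33 without animal 5.

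Some of the redox genes lowest in animal 5 are given here, chosen after their values were seen. CCS, the chaperone that loads copper into SOD1, stood there at 8.98, against 9.68 to 10.25 in the others. PRDX5, a further peroxiredoxin, stood at 10.43 and the mitochondrial thioredoxin TXN2 at 10.54, both lowest in animal 5. MSRA, which repairs oxidised methionine, stood at 10.14 against at least 11.33. TALDO1, of the pentose phosphate route to NADPH, stood at 9.19 against at least 10.21.

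The 8 redox genes highest in animal 5 were TXNRD1, TXNL1, GLRX5, GSR, SELENOP, SEPHS2, NNT and NFE2L2. NNT, which makes NADPH in mitochondria, stood at 13.90 there and at no more than 13.04 elsewhere. SELENOP, the selenium carrier of plasma, stood at 14.02 against at most 13.32.

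In the fits on single enzyme genes, 8 of 59 redox genes rose and 1 fell with SOD1, 8 rose and 2 fell with GPX4, 7 rose and 3 fell with PRDX1, and 5 rose and 5 fell with GPX3, in limma at an adjusted p of 0.05. These are 15.3% of the 59 for SOD1 and 16.9% for each of the other 3, where 13% of all genes passed with SOD1, 12.9% with GPX4, 15.6% with PRDX1 and 10.3% with GPX3. CCS, PRDX5, TXN2, GLRX2, MGST3, MSRA and TALDO1 rose with each of SOD1, GPX4 and PRDX1. NFE2L2 fell with all 4 and rose with PRDX3 and PRDX6. Of the 59, 0 passed with CAT, GPX1 or PRDX2. All of these fits include animal 5. Without it, 0 of 59 redox genes passed in limma with any of the 10 enzyme genes, and 1 to 12 per enzyme gene had an unadjusted p below 0.05. The fewest were 1 with GPX1, where 3.49% of all other tested genes had such a p. The most were 12 with PRDX6, where 11.5% did, and PRDX1 had 9, where 5.91% did.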

How the data were processed

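The values the authors deposited are linear intensities, summarised to 1 per probe set, by software not given in the sources used. Per the labels' protocols, Trizol was used to extract total RNA, an oligo(dT) resin to purify its poly(A) fraction, and biotin to label it. The mean without the lowest and highest 2% was 500.177 to 500.203 on every array. Array medians of log2(signal + 16) spanned 0.24, and the 24016 probe sets outside 112 controls were quantile normalized. Symbols come from the platform annotation (13292 probe sets with 1 symbol, 86 with several, 10638 with none listed), and all 10 enzyme genes matched by gene ID to the RefSeq table of assembly ARS-UCD2.0, used for names only. Fits were made in R (version 4.3.3) with limma (version 3.58.1) and Benjamini-Hochberg adjustment over all tested genes at 0.05, and were tested on simulated data. A list gene was fitted against the score without it. The enzyme genes and gene lists were chosen with earlier results of these data known. Named beyond the enzymes were the 2 genes with the highest r for each, and the brightest, most variable or extreme genes of a list. Correlations are descriptions. Arrays give no depth, so their number, 10, limits the precision.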

Additional observations from a re-analysis of the deposited data

Results flagged for a closer look

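A value was singled out when the gap between the highest or lowest animal and the next exceeded, as a share of the whole range, Dixon's critical value for 10 animals. Chance does so in about 1 in 20 groups, and 16.7% of all tested genes passed the limit here. Of 20 sets of values examined, 6 did. In animal 5 the level of SOD1 was 12.57 with the next animal at 13.63, that of GPX4 10.82 with the next at 11.55, that of PRDX1 11.58 with the next at 13.47, and that of PRDX2 12.49 with the next at 13.14. The second brightest PRDX6 probe set was also low in animal 5, at 9.99 with the next at 10.85. The dimmest PRDX6 probe set, below the level for testing, stood at 6.48 in animal 3 with the next animal at 4.81. GPX1, GPX3, SOD2, CAT, PRDX3 and the brightest PRDX6 probe set were at an extreme in animal 5 without passing this limit.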

How the results depend on the processing

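The count of enzyme genes past the test was 0 for each of the 5 scores under every alternative run, including each animal left out; the leukocyte score could not be made above the 75th percentile of mean level, where 0 of its genes were left. The 23 fits of 1 enzyme gene on another that passed became 11 with the deposited scaling and 8 with arrays centred on their median. They became 9 with no filter on dim genes. The count was 0 with the control 3′ minus 5′ difference as a covariate, which mostly sets animal 5 apart. With 1 animal left out in turn the count ran from 0 (without animal 5) to 29, with 12 without animal 2 and 13 without animal 4, and the median SD of the enzyme genes ran from 0.23 (without animal 5) to 0.38. No paired analysis was possible because the 10 arrays form 1 group. Slopes on an enzyme gene that changed sign without animal 5, their lowest value with 1 animal left out in turn, were GPX3 on SOD1 (-0.19 to 0.73), GPX4 on PRDX1 (-0.0100 to 0.27) and on SOD1 (-0.0254 to 0.27), PRDX1 on GPX4 (-0.0131 to 0.66) and on SOD1 (-0.0016 to 0.67), and SOD1 on GPX4 (-0.0307 to 0.39) and on PRDX1 (-0.00149 to 0.40). So did those of GPX4 (-0.0103 to 0.23) and PRDX1 (-0.00766 to 0.58) on the oxidative phosphorylation score and of PRDX1 (-0.0610 to 0.48) and SOD1 (-0.00408 to 0.31) on the leukocyte score. With the covariate the PRDX1 leukocyte slope was -0.0027. With the second PRDX6 probe set, an alternative chosen after seeing the data, GPX3 on PRDX6 was 0.38, PRDX3 on PRDX6 -0.12, PRDX6 on GPX3 0.20, on PRDX1 0.37, on PRDX3 -0.15 and on the NRF2 score 0.22. With the mean of probe sets PRDX6 on PRDX1 was 0.0145.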

Other observations

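Glutathione transferases, which attach glutathione to reactive compounds, had a larger median SD between animals than the enzyme genes did, without matching for level. The median SD over 9 tested members was 0.53, against 0.36 over all tested genes, and it was 0.52 without animal 5. GSTM3 had the largest SD at 1.15. It stood at 13.10 in animal 2 and 13.03 in animals 8 and 9, at 12.50 in animal 7, between 10.91 and 11.73 in animals 1, 3, 4 and 10, at 10.55 in animal 6 and at 9.86 in animal 5. GSTA2 had an SD of 1.05 and MGST1 of 1.03, while those of GSTA4 and MGST2 were 0.32 and 0.33. SEPHS2, which makes the selenium donor for selenoproteins, ran from 7.73 in animal 8 to 10.25 in animal 5, with an SD of 0.85.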
